A study of Mus musculus with 16 samples.

Results

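The miR-199 and miR-214 family members on a mouse miRNA array, miRNAs known from fibroblasts and other cells of connective tissue, were followed in mouse dorsal skin across Ppard genotype and chronic UVB irradiation. Every entry of the array named mmu-miR-214 or starting with mmu-miR-199 was taken, with names ending in a star left out, which gave 3 of the 577 miRNAs on the array: mmu-miR-199a-5p, mmu-miR-199b and mmu-miR-214. RNA of dorsal skin was hybridised to 16 arrays, 4 per group. Compared were wild type without UV (WT no UV), knockout without UV (KO no UV), wild type after UV (WT UV) and knockout after UV (KO UV). Wild type was Ppard+/+ and knockout Ppard-/-, which lacks the nuclear receptor PPARβ/δ in the whole body, and both were on the SKH1-C57/Bl6-SV129 background. The irradiated mice received UVB at 70 mJ/cm2 per exposure, 3 times a week, for 12 weeks. Per the methods, the animals were hairless adult females, the genotypes were littermates, each group held 4 animals and the skin taken after chronic exposure was free of lesions. No measure of Ppard was among the values used here, so the genotype labels were not checked.

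MiRNAs are short RNAs that pair with messenger RNAs, mainly through the seed at bases 2 to 8, and lower their translation or stability. MiR-199a and miR-214 are processed from one long noncoding transcript, Dnm3os, which mesenchymal cells make under the transcription factor Twist1. Both are known in fibroblasts, in fibrosis and in skin and hair follicle development, and the miR-199 hairpins yield a 5p and a 3p strand that are both known to be functional. In whole skin, fewer cells of a type and less RNA per cell cannot be told apart, so each level below is that of the tissue.

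The mature sequences show which molecules the 3 entries read. They are given 5′ to 3′ from RefSeq (GRCm38.p6), with the seed in capitals.
mmu-miR-199a-5p: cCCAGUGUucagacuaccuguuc
mmu-miR-199a-3p: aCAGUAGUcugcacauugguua
mmu-miR-199b-3p: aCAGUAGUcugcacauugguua
mmu-miR-214-3p: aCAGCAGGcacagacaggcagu
mmu-miR-214-5p: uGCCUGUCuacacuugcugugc
The 2 miR-199 3p strands are identical, and the accession field of the entry mmu-miR-199b holds the names of both, so this entry reads the 3p strands of all miR-199 hairpins together. The array entry mmu-miR-214 was taken as miR-214-3p and the entry mmu-miR-214* as miR-214-5p. The 5p and 3p strands carry different seeds. The seed of miR-214-3p is shared by mmu-miR-761 (gCAGCAGGgugaaacugacaca), which was on the array and was detected on 0 of 16 arrays.

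The hairpins show where the strands come from, with the mature strands that RefSeq lists in capitals.
Mir199a-2: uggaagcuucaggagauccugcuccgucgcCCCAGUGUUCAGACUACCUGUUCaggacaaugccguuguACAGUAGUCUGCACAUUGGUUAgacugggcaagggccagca
Mir214: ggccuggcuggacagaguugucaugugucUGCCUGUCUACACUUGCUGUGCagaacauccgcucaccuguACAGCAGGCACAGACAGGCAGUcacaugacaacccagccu
Mir199b: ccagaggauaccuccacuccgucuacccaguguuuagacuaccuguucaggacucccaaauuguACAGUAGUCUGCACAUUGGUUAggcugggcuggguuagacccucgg
Mir199a-2 lies at chr1:162217814-162217923 (+) and Mir214 at chr1:162223368-162223477 (+) of GRCm38.p6, 5444 bases apart. Both are inside the noncoding gene Dnm3os (chr1:162217623-162225550), which itself lies within the span of the dynamin gene Dnm3. Mir199b lies at chr2:32318460-32318569 (+) within the span of Dnm1. The remaining miR-199 gene, Mir199a-1, lies at chr9:21496495-21496564 (-) within the span of Dnm2 and encodes the same mature strands as Mir199a-2. Bases 26 to 48 of the Mir199b hairpin match miR-199a-5p at 22 of 23 bases, with the single change C10U (counted from the 5′ end of miR-199a-5p). The array reads that arm as mmu-miR-199b*, and whether the probes separate it from miR-199a-5p was not tested.

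Each member was read by 2 probes of 10 spots each, placed by the files on mm9. The probes of mmu-miR-199a-5p span chr1:164147979-164147997, those of mmu-miR-199b span chr1:164148016-164148035 and those of mmu-miR-214 span chr1:164153578-164153590. The probes of mmu-miR-214 cover only 12 and 13 bases, against 18 to 20 for the others. All 3 members were called detected on all 16 arrays, with an error of the scanner software between 7.36% and 9.13% of the signal. Raw signals ran from 434 to 1093 units for mmu-miR-199a-5p, from 2135 to 4557 for mmu-miR-199b and from 195 to 372 for mmu-miR-214. Probes differ in brightness, so these signals do not rank the miRNAs against each other.

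Several properties of the arrays bear on all values. All irradiated skin was on 1 slide and all other skin on the other, so UV and slide cannot be told apart, and on the irradiated slide genotype and slide row coincided. The spread of the negative controls was 9.72 units on the irradiated slide and 4.04 on the other, and 184 to 206 miRNAs were detected per array against 216 to 266. Total signal ran from 170979 to 395200 units, and no spot was saturated. Of the 577 miRNAs, 167 were detected on all 16 arrays. Among them were 7 of 7 keratinocyte miRNAs and 4 of 4 fibroblast miRNAs, but 3 of these 4 are the members themselves. The smooth muscle, endothelium, skeletal muscle and leukocyte markers were also detected on every array. Of the erythrocyte markers, mmu-miR-451 and mmu-miR-486 were detected on every array and mmu-miR-144 on 3 of 16.

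One array, KO UV replicate 4, had a dim area in its middle. Among spots of probes brighter than 300 units, 12.6% lay under 0.5 of the median of their own probe on this array, against at most 1.16% on the other 15 arrays. When the array was divided into 32 areas, 9 had a median relative signal under 0.9, and the lowest was at 0.0632. KO no UV replicate 4 had a fainter dim area at the same place, with a lowest area median of 0.727. The area touched mmu-miR-199b most: 6 of its 20 spots on KO UV replicate 4 lay under 0.5 of their probe's median, and its spots of the brighter probe ran from 219 to 3113 units. The ratio of the 2 probes of mmu-miR-199b was 1.09 on that array. It was 1.60 on KO no UV replicate 4, the array with the fainter dim area, and between 1.79 and 2.04 on the remaining arrays. Of the 20 spots of mmu-miR-199a-5p and of mmu-miR-214, 1 each was under 0.5 on KO UV replicate 4. Differences in level of the members between 2 groups that involve irradiated knockout skin are therefore also given without KO UV replicate 4. For interactions and within-array differences this was done only in part.

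**Figure D1:**
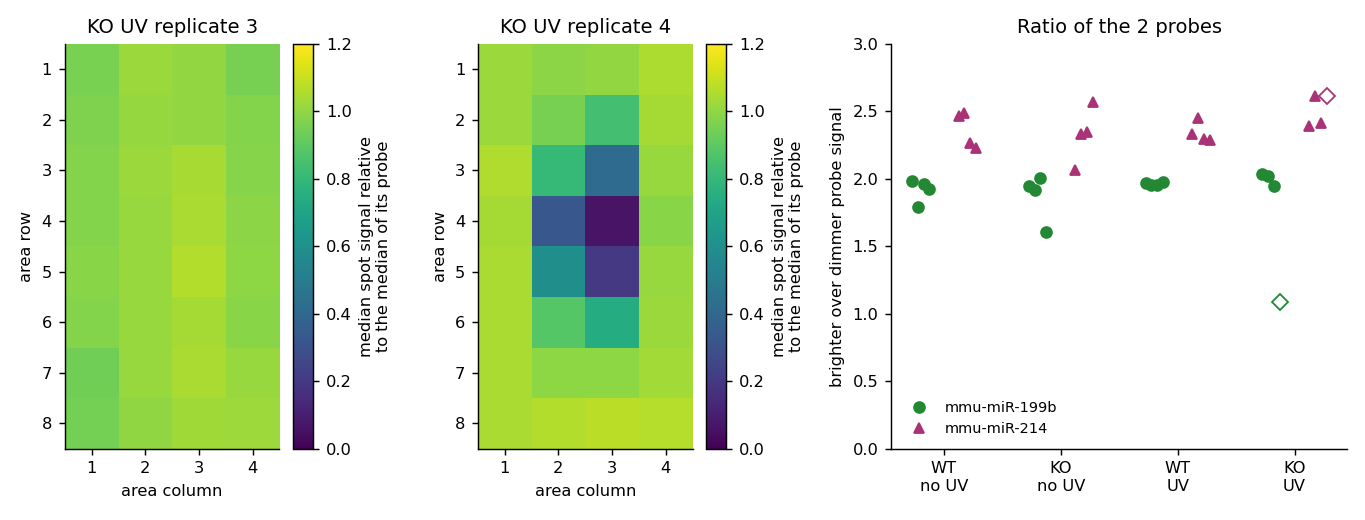
Left and centre, median spot signal relative to the median of the same probe in 32 areas (8 rows by 4 columns) of KO UV replicates 3 and 4, on a colour scale from 0 to 1.2. Right, ratio of the brighter to the dimmer probe of mmu-miR-199b (circles) and mmu-miR-214 (triangles) on the 16 arrays, with KO UV replicate 4 as open diamonds; its mmu-miR-199b ratio of 1.09 lies under those of the other 15 arrays.

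Signals were quantile normalized between arrays, and levels are given as normalized log2 signal, where 1 unit is a doubling. Differences were tested with limma over 228 miRNAs and a miRNA was called where its adjusted p (Benjamini-Hochberg) was under 0.05. The comparisons share groups and are not independent of each other. Of the 15 tests of the 3 members in 5 comparisons, 1 was called: mmu-miR-214 was higher in irradiated than in unirradiated knockout skin. The 6 differences between knockout and wild type were all below 0 and none was called. Without normalization between arrays the 3 in unirradiated skin were above 0, but under the median of all miRNAs tested, which was itself at 0.52.

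mmu-miR-199a-5p, the 5p strand of the miR-199a hairpins, was highest in unirradiated wild-type skin and lowest in irradiated knockout skin. In WT no UV its log2 level was 9.91, 9.72, 9.36 and 9.69 in replicates 1 to 4, with a mean of 9.67 ± 0.23 (SD, n = 4). In KO no UV it was 9.05, 9.39, 9.27 and 9.77, with a mean of 9.37 ± 0.30 (SD, n = 4). The 2 unirradiated groups overlapped, and KO no UV replicate 4 was above 3 of the wild-type arrays. In WT UV it was 9.32, 9.39, 9.43 and 9.22, with a mean of 9.34 ± 0.09 (SD, n = 4). In KO UV it was 9.11, 9.05, 9.16 and 9.16, with a mean of 9.12 ± 0.05 (SD, n = 4). The irradiated arrays were tighter than the unirradiated ones, and all 4 KO UV arrays lay under the lowest WT UV array. Such a gap between groups was present for 6.14% of all miRNAs tested in this comparison.

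mmu-miR-199b, the shared 3p strand, had another order, with WT UV first, WT no UV second, KO UV after it and KO no UV last. In WT no UV it was 11.94 in replicate 1 and 11.58 in each of the others, with a mean of 11.67 ± 0.18 (SD, n = 4). In KO no UV it was 11.33, 11.42, 11.50 and 11.58, with a mean of 11.46 ± 0.11 (SD, n = 4). Quantile normalization hands out values by rank, and this bright miRNA took only 6 distinct values over the 16 arrays. In WT UV it was 11.86, 11.94, 11.94 and 11.86, with a mean of 11.90 ± 0.05 (SD, n = 4). In KO UV it was 11.86, 11.58, 11.58 and 11.33, with a mean of 11.59 ± 0.21 (SD, n = 4). The lowest of these is the array with the dim area, and KO UV replicate 1 reached the lowest WT UV value. With each array scaled to its 75th percentile among always-detected miRNAs, KO UV replicates 1 to 4 had 3016, 3331, 2857 and 2428 units. WT UV had 3525, 3476, 3407 and 3388 units, so these groups did not overlap under that scaling. How common such a gap is among all miRNAs under that scaling was not counted.

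mmu-miR-214 had the same order of groups as mmu-miR-199b. In WT no UV it was 8.44, 8.16, 8.22 and 8.39, with a mean of 8.30 ± 0.14 (SD, n = 4). In KO no UV it was 7.93, 7.93, 7.85 and 8.16, with a mean of 7.97 ± 0.13 (SD, n = 4). Only KO no UV replicate 4 reached the range of the wild-type arrays. In WT UV it was 8.28, 8.55, 8.44 and 8.16, with a mean of 8.36 ± 0.17 (SD, n = 4). In KO UV it was 8.35, 8.35, 8.39 and 8.06, with a mean of 8.29 ± 0.15 (SD, n = 4). KO no UV was thus the group with low values, and KO UV replicate 4 was the one irradiated knockout array near them.

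**Figure D2:**
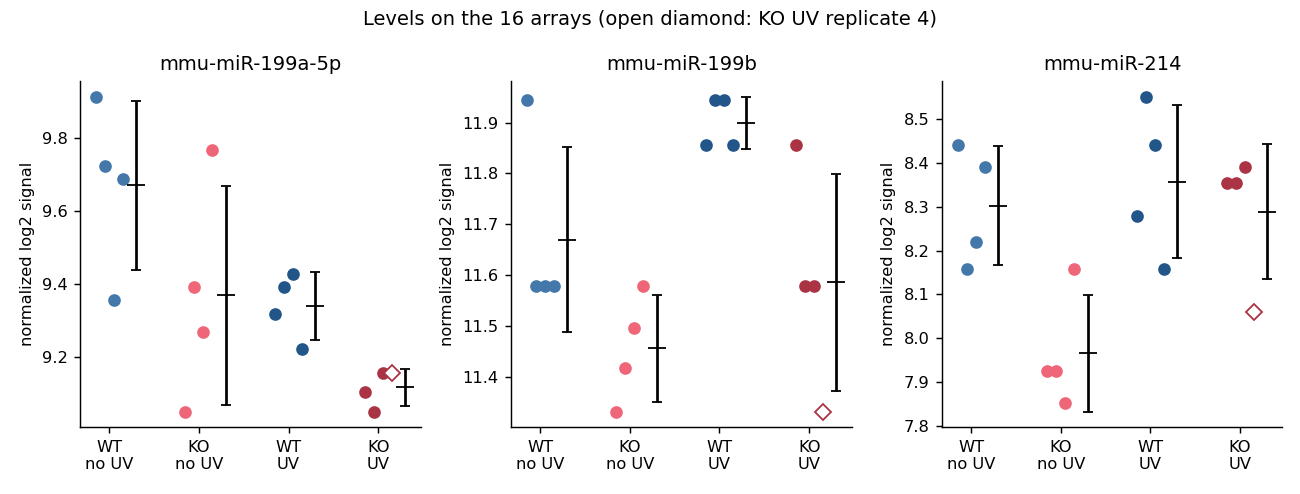
Normalized log2 signal of the 3 members on each of the 16 arrays by group (points), with the mean and SD of the 4 arrays beside them (bar). The open diamond is KO UV replicate 4, the array with a dim area; mmu-miR-214 lies between 7.85 and 8.16 in KO no UV, under 3 of the 4 KO UV arrays.

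The first question was whether loss of PPARβ/δ changes the members in resting skin. Without UV, the difference of knockout minus wild type was -0.30 ± 0.14 (SE) for mmu-miR-199a-5p, -0.21 ± 0.11 for mmu-miR-199b and -0.34 ± 0.10 for mmu-miR-214, all on the log2 scale. With limma, the adjusted p was 0.288, 0.343 and 0.119. The 95% interval for mmu-miR-214 ran from -0.56 to -0.11, or -32.2% to -7.53% of the signal, and the difference did not pass the adjustment over 228 miRNAs. None of the 228 miRNAs tested was called in this comparison (0% called), while 36 had an unadjusted p under 0.05. Leaving out the 11 miRNAs that sat at the floor on all arrays gave 10 calls of 217 (4.61%), and none of them was a member.

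After UV, the difference of knockout minus wild type was -0.22 ± 0.14 (SE) for mmu-miR-199a-5p, -0.31 ± 0.11 for mmu-miR-199b and -0.07 ± 0.10 for mmu-miR-214, with limma adjusted p of 0.712, 0.246 and 0.951. Called miRNAs were 5 of the 228 tested (2.19%), or 5 of 217 (2.3%) without those at the floor, with no member among them. Without KO UV replicate 4 the differences were -0.23, -0.23 and 0.01, so for mmu-miR-199b the difference shrank and for mmu-miR-214 it changed sign. With the median spot of each probe in place of the total signal, a summary chosen after the dim area was seen, the difference of mmu-miR-199b was -0.39 with a limma adjusted p of 0.0403. With the spots of the dim area left out on all arrays it was -0.30 with an adjusted p of 0.144.

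The next comparison was irradiated against unirradiated skin within each genotype, which also compares the slides. In wild type the difference of UV minus none was -0.33 ± 0.14 (SE) for mmu-miR-199a-5p, 0.23 ± 0.11 for mmu-miR-199b and 0.06 ± 0.10 for mmu-miR-214, with limma adjusted p of 0.106, 0.149 and 0.749. The sign depended on the scaling: with each array scaled to its 75th percentile among always-detected miRNAs, mmu-miR-199b was at -0.0426 and mmu-miR-214 at -0.0076. The median of all miRNAs tested was itself at -0.10 there, so relative to it both were still higher. With no normalization mmu-miR-199a-5p was at 0.083, where that median was at 0.21, so relative to it this miRNA was still lower. Called were 37 of the 228 miRNAs (16.2%), or 45 of 217 (20.7%) without those at the floor. No member was called in either.

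In knockout skin, mmu-miR-214 was higher after UV by 0.32 ± 0.10 (SE) on the log2 scale, a 1.25-fold difference, with a limma adjusted p of 0.0360 and a 95% interval from 0.10 to 0.55. Of the 4 KO UV arrays, 3 lay above all 4 KO no UV arrays. For mmu-miR-199a-5p the difference was -0.25 ± 0.14, and for mmu-miR-199b it was 0.13 ± 0.11, with adjusted p of 0.180 and 0.380. With quantiles taken within each slide mmu-miR-199b was at -0.0828, beside a median of all miRNAs tested of -0.12. Without KO UV replicate 4 the differences of mmu-miR-199a-5p and mmu-miR-199b were -0.27 and 0.21, and neither was called. Calls were common in this comparison: 68 of 228 miRNAs (29.8%), or 65 of 217 (30%) without those at the floor, so 1 of 3 members is close to the background. Groups that did not overlap made up 20.2% of the tested miRNAs here, and no member was among them. In the remaining comparisons this share was 2.63% for knockout minus wild type without UV and 21.5% for UV in wild type, again with no member.

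The call of mmu-miR-214 was sensitive to single arrays and to the scaling. Without KO UV replicate 4 the difference was 0.40 with an adjusted p of 0.0124, and without KO no UV replicate 4 it was 0.39 with 0.0224. Without any 1 of the other 6 knockout arrays it lay between 0.29 and 0.31 and was no longer called, with adjusted p from 0.0722 to 0.0909. It was 0.25 with an adjusted p of 0.0642 in the deposited normalized values. The median spot of each probe gave 0.28 and an adjusted p of 0.0659. Without normalization between arrays the difference was -0.25, where the median of all miRNAs tested was itself at -0.48, so relative to the other miRNAs it was still higher.

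**Figure D3:**
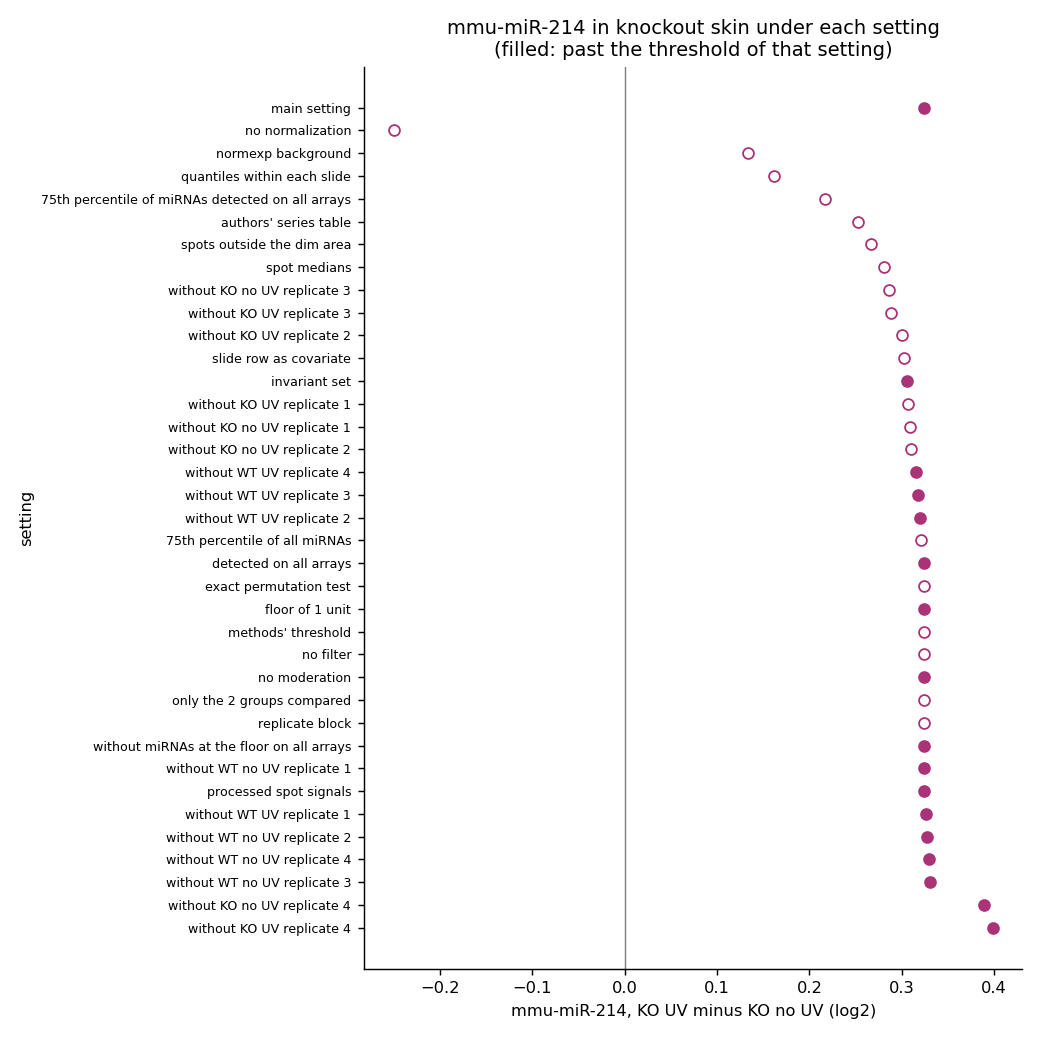
Difference of mmu-miR-214 between irradiated and unirradiated knockout skin (horizontal axis, log2) under the main setting, the alternatives and with each array left out (vertical axis); filled points passed the threshold of that setting. All settings but no normalization gave a positive value, and the call was lost without any 1 of 6 knockout arrays.

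Whether the UV difference depended on genotype was tested by the interaction, the UV effect in wild type minus that in knockout. It was -0.08 ± 0.19 (SE) for mmu-miR-199a-5p, 0.10 ± 0.15 for mmu-miR-199b and -0.27 ± 0.15 for mmu-miR-214, with limma adjusted p of 0.916, 0.864 and 0.498. The signs for mmu-miR-199a-5p and mmu-miR-199b turned with the scaling, to 0.0249 and -0.0207 at the 75th percentile of all miRNAs. A difference between the genotypes in the UV effect on mmu-miR-214 was therefore not shown, although it was called in knockout skin and not in wild type. For mmu-miR-214 the 95% interval of the interaction ran from -0.59 to 0.05. Without KO UV replicate 4 it was -0.34 with an adjusted p of 0.263. Called were 5 of 228 miRNAs (2.19%), or 3 of 217 (1.38%) without those at the floor.

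**Figure D4:**
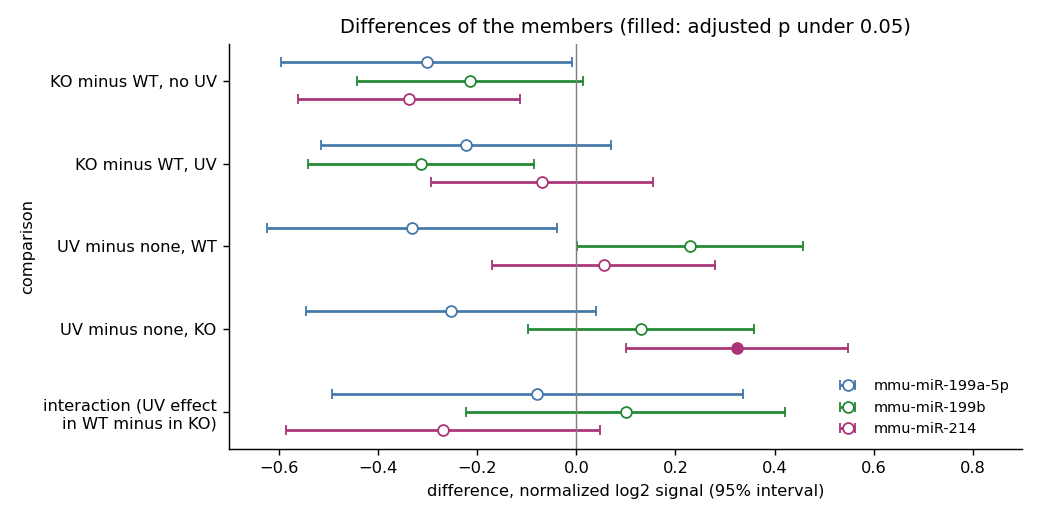
Differences of the 3 members in the 5 comparisons (horizontal axis, normalized log2 signal; points with 95% intervals from limma), with the comparison on the vertical axis. The 1 filled point, mmu-miR-214 after UV in knockout skin at 0.32, had an adjusted p under 0.05. All 6 points of knockout minus wild type lie below 0. When arrays are not normalized, the 3 without UV lie above 0 and under the median of all miRNAs tested of 0.52.

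The strands were also set against each other within each array, which removes any shift of a whole array except for the rank steps of the quantile normalization. This difference shows unequal change between 2 miRNAs and says nothing of which is more abundant. The difference of miR-199a-5p minus miR-214 was 1.47, 1.57, 1.14 and 1.30 in WT no UV and 1.12, 1.47, 1.42 and 1.61 in KO no UV. It was 1.04, 0.84, 0.99 and 1.06 in WT UV and 0.75, 0.70, 0.77 and 1.10 in KO UV. All 8 irradiated arrays were thus below all 8 unirradiated ones, a comparison that is also between the slides. Among single miRNAs tested, the groups did not overlap with UV for 21.5% in wild type and 20.2% in knockout. The share of such gaps among pairs of miRNAs was not counted. In wild type the mean of miR-199a-5p minus miR-214 was 1.37 ± 0.19 (SD, n = 4) without UV and 0.98 ± 0.10 after it, and in knockout 1.40 ± 0.20 and 0.83 ± 0.18. The differences with UV were -0.39 and -0.58, each with an exact two-sided permutation p of 0.0286, the smallest that 4 against 4 arrays can give, and 0.0714 after adjustment over 5 tests. Neither passed a threshold of 0.05 after that adjustment, since 2 values at the smallest possible p among 5 tests cannot reach it. The same difference was 0.04 for knockout minus wild type without UV (exact permutation p = 0.8286) and -0.15 after UV (exact permutation p = 0.200), and the interaction was 0.19 (exact permutation p = 0.276).

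Without normalization the differences with UV were -0.30 in wild type and -0.52 in knockout, and without KO UV replicate 4 the difference was -0.66 in knockout. With normexp background the knockout difference was -0.32, the groups overlapped and the exact permutation p was 0.0571. With the median spot of each probe the groups overlapped, with differences of -0.34 and -0.51 and an exact permutation p of 0.0571 for each. With the spots of the dim area left out they were -0.35 and -0.51, with exact permutation p of 0.0857 and 0.0571.

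The 5p and 3p strands of miR-199 were compared in the same way. For miR-199a-5p minus miR-199b, a pair added after the values were seen, the difference with UV was -0.56 in wild type (exact permutation p = 0.0286) and -0.38 in knockout (exact permutation p = 0.0857). In wild type the groups did not overlap, with values from -2.22 to -1.85 before and from -2.63 to -2.51 after UV. How common such a gap is among pairs was not counted. Without normalization or with 1 factor per array the wild-type difference was -0.26, with the same exact permutation p, and the knockout one -0.31 (exact permutation p = 0.143). For miR-199b minus miR-214, also added, the difference with UV was 0.17 in wild type and -0.19 in knockout, where the wild-type value was -0.035 without normalization, and the interaction was 0.37 with an exact permutation p of 0.0155. That interaction was 0.18 with an exact permutation p of 0.247 without normalization or with 1 factor per array. Without KO UV replicate 4 it was 0.36 (exact permutation p = 0.0318). With the median spot of each probe it was 0.43 (exact permutation p = 0.00531, 0.0265 after adjustment over 5 tests). Of 10 alternatives, 9 did not pass this adjustment. Leaving out KO UV replicate 1 or WT no UV replicate 1 gave 0.44 and 0.41, which passed it at 0.0408 and 0.0449. In the main setting the lowest adjusted p over all 15 within-array tests was 0.107, so none passed there.

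**Figure D5:**
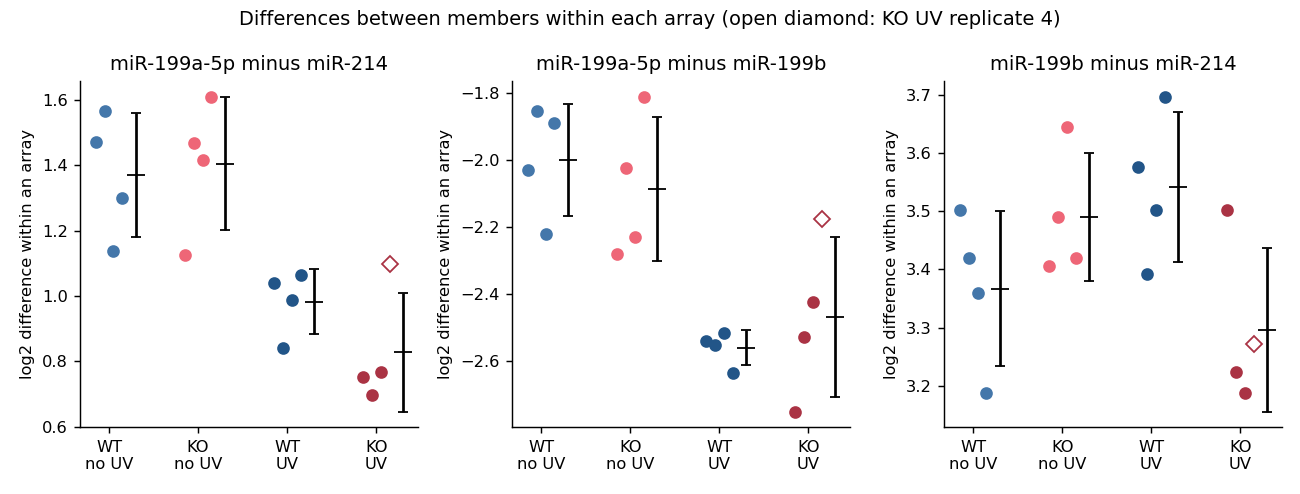
Log2 difference between 2 members within each array (vertical axis) for the 3 pairs, by group; points are arrays, bars are the mean and SD of 4 arrays and the open diamond is KO UV replicate 4. For miR-199a-5p minus miR-214, the 8 irradiated arrays lie between 0.70 and 1.10 and the 8 unirradiated ones between 1.12 and 1.61. UV and slide coincide, and the share of such gaps among other pairs was not counted.

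The 2 probes of a member were compared next. After scaling each array to its 75th percentile, the UV difference in wild type was -0.28 and -0.44 (log2) for the 2 probes of mmu-miR-199a-5p, and in knockout -0.28 and -0.50. For mmu-miR-214 the UV difference in knockout was 0.14 and 0.25, and in wild type 0.00 and -0.01. Under this scaling, taken among always-detected miRNAs, the median UV difference of all miRNAs tested was -0.10 in wild type and -0.04 in knockout. For mmu-miR-199b the difference of knockout minus wild type after UV was -0.14 for the probe less touched by the dim area and -0.33 for the other, and the UV difference in knockout was 0.0656 and -0.0496, with opposite signs. The probes of mmu-miR-214 gave -0.0993 and -0.0015 for knockout minus wild type after UV. The brighter probe of mmu-miR-199a-5p was 5.17 to 8.06 times the dimmer one, so its summed signal is mostly that of 1 probe. This ratio had a mean of 5.82 ± 0.40 (SD, n = 8) on the unirradiated slide and 6.68 ± 0.97 (SD, n = 8) on the irradiated one. Probes of 1 miRNA share its target and are not replicates.

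The star strands, which the selection left out, bear on the hairpins. mmu-miR-199b*, the 5p arm of Mir199b, was detected on all 16 arrays, at a log2 level in unirradiated skin of 10.46 ± 0.20 (SD, n = 4) for wild type and 10.34 ± 0.35 for knockout. After UV its level was 10.30 ± 0.10 for wild type and 9.99 ± 0.18 for knockout. This is the order of groups of mmu-miR-199a-5p, the strand it resembles in sequence. Its differences with UV were -0.16 in wild type and -0.35 in knockout, with limma adjusted p of 0.535 and 0.102, and it was not called in any comparison. mmu-miR-214* was detected on 6 of 16 arrays, 4 of KO no UV and 2 of WT no UV, and lay at the floor of 19.4 units on every array after normalization. No fold can be given for it.

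The miRNAs most like each member were found by Pearson correlation of normalized log2 signal over the 16 arrays, among 164 mouse miRNAs detected on all of them. The arrays share 2 slides, so r on the unirradiated and on the irradiated slide, 8 arrays each, is given beside r over all 16. For mmu-miR-199a-5p the likest were mmu-miR-350 (r = 0.81, by slide 0.77 and 0.57), mmu-miR-199b* (r = 0.79, by slide 0.81 and 0.52) and mmu-miR-362-3p (r = 0.77, by slide 0.79 and 0.57). For mmu-miR-199b they were mmu-miR-34a (r = 0.80, by slide 0.89 and 0.66), mmu-miR-324-5p (r = 0.77, by slide 0.66 and 0.81) and mmu-miR-331-3p (r = 0.74, by slide 0.85 and 0.53). For mmu-miR-214 they were mmu-miR-21 (r = 0.87, by slide 0.89 and 0.68), mmu-miR-34a (r = 0.83, by slide 0.89 and 0.49) and mmu-miR-155 (r = 0.79, by slide 0.82 and 0.50). For all but mmu-miR-199b with mmu-miR-324-5p, r was lower on the irradiated slide than on the other.

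The members were also set against each other. mmu-miR-199a-5p and mmu-miR-214 had r = 0.24 over the 16 arrays, but 0.79 over the 8 unirradiated and 0.42 over the 8 irradiated arrays. mmu-miR-199a-5p and mmu-miR-199b had r = 0.27 over all, 0.81 unirradiated and 0.65 irradiated. mmu-miR-199b and mmu-miR-214 had r = 0.74 over all 16, 0.80 unirradiated and 0.59 irradiated. These are descriptions over arrays that share normalization, with no test.

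Other miRNAs known from stromal cells were counted against the background of all tested miRNAs. Of 38 such entries on the array, 29 were tested, the members and star strands included. After UV in knockout skin 2 were called higher and 5 lower, with a median difference of -0.03 beside 0.00 over all 228 tested, of which 42 were called higher and 26 lower (29.8% in all). In wild type 1 was called higher and 4 lower, with a median of -0.04, beside 21 higher and 16 lower of all tested (16.2% in all). The list's shares are near these backgrounds and are no result about stromal miRNAs. None was called between genotypes, where the median was -0.04 both without UV and after it. Leaving out the miR-199 and miR-214 entries, 24 were tested and 1 was called higher and 5 lower with UV in knockout skin.

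Markers of other cell types were also called in the comparison in which mmu-miR-214 was called, where 29.8% of all 228 miRNAs were called, 42 higher and 26 lower. mmu-miR-145, a smooth muscle miRNA, was lower in irradiated knockout skin, with a difference of -1.66 (log2, limma adjusted p = 0.000265). Its level ran from 6.78 to 7.32 in KO no UV and from 4.98 to 6.02 in KO UV, near the floor of 4.28. In wild type it was also lower after UV, from 6.50 to 7.15 without UV and from 5.54 to 5.91 after it. Of the 2 smooth muscle miRNAs, 2 were called lower with UV in knockout skin and 1 in wild type. The skeletal muscle miRNAs mmu-miR-133a, mmu-miR-133b and mmu-miR-1 had differences of -1.25, -1.08 and -1.001, with limma adjusted p of 0.00125, 0.00125 and 0.00477. All 4 skeletal muscle miRNAs were called lower there, and their summed normalized signal ran from 40650 to 50330 units in KO no UV against 19460 to 24490 in KO UV, with 20450 to 41170 in WT no UV and 21900 to 25990 in WT UV. Of the 7 keratinocyte miRNAs, 6 were called higher after UV in knockout skin and 4 in wild type, where 16.2% of all miRNAs were called, 21 higher and 16 lower. Their sum ran from 22220 to 27760 units in KO no UV against 29320 to 43030 in KO UV. Of the 5 leukocyte miRNAs, 1 was called lower in knockout and 2 in wild type. Of the 2 erythrocyte miRNAs tested, 1 was called lower in knockout and none in wild type. The 4 fibroblast miRNAs, which are the 3 members and mmu-miR-152, summed to 3557 to 4459 units in KO no UV and 3637 to 4840 in KO UV. The part of such shifts between cell types in the values of the members was not tested.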

How the data were processed

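RNA from dorsal skin was hybridised to 16 Agilent arrays for mouse miRNAs (Cy3 only), and titles gave each sample's group and number. The deposited scanner files hold intensity values, made by the authors with Agilent Feature Extraction 9.5.3.1. It removed background per spot, summarised the spots of each probe and gave each miRNA a total signal from its probes. A table of log2 values, normalized by the authors with an invariant set and quantiles and deposited with an unstated offset, served as an alternative. Total signals were quantile normalized between arrays, raised to a floor of 19.4 units (from each array's 5th percentile of detected signals, taking the median) and log2 transformed. Tested were miRNAs detected on every array of 1 group or more (228 miRNAs, 11 of them at the floor on all arrays). One group-means model was fitted to the 16 arrays with limma 3.58.1 in R 4.3.3, tested on simulated data, with Benjamini-Hochberg adjustment per comparison. The labels give sample numbers and the methods name 4 animals per group, so p-values measure the spread between these samples. Named miRNAs were all members, their star strands, the 3 most correlated miRNAs per member, up to 4 called list miRNAs by size and same-seed miRNAs. The members and lists were chosen with earlier results of these data known. The number of arrays limits the precision. Alternatives covered scaling, signal, filter, floor, samples, covariates, test and single arrays. Sequences came from RefSeq.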

Additional observations from a re-analysis of the deposited data

Results flagged for a closer look

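Among 24 groups of 4 quantile-normalized values examined, 2 held a value whose gap to the nearest of the others, as a share of the whole range, was above Dixon's 95% critical value. Chance gives this in about 1 group in 20. The mmu-miR-199b level in WT no UV replicate 1 was 11.94 (log2), against 11.58 on each of the other 3 arrays, which share 1 rank step of the quantile normalization. Scaled to the 75th percentile among always-detected miRNAs, replicates 1 to 4 had 4002, 3596, 3220 and 3434 units, so the other 3 differed there. Without WT no UV replicate 1 the UV difference of mmu-miR-199b in wild type was 0.31 with a limma adjusted p of 0.0385, in place of 0.23 and 0.149. The mmu-miR-214 level in KO UV replicate 4, the array with the dim area, was 8.06, against 8.35 to 8.39 on the other 3 arrays. With the same scaling, KO UV replicates 1 to 4 had 285.6, 335.1, 319.5 and 275.6 units, so replicate 4 was close to replicate 1 there. Of the 20 spots of mmu-miR-214 on KO UV replicate 4, 5 lay in the dim area and 1 was under 0.5 of its probe's median, and the part of the area in this low value was not tested.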

How the results depend on the processing

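Differences are log2, with limma adjusted p where given. Of 20 main results (15 limma tests and 5 within-array differences of miR-199a-5p minus miR-214), 1 passed its threshold, the UV difference of mmu-miR-214 in knockout skin. It stayed called without the 11 miRNAs at the floor, with the invariant set, processed spot signals, a floor of 1 unit, no moderation and only miRNAs detected on all arrays. It was lost, at 0.32, with no filter, in the fit of only the 2 groups (adjusted p = 0.0610), under the threshold of the methods, in the exact permutation test and with the replicate block (adjusted p = 0.0654). It was also lost at 0.22 and 0.32 under the 75th percentile of miRNAs detected on all arrays and of all miRNAs, at 0.16 with quantiles within each slide, at 0.13 with normexp background, at 0.25 in the deposited series table, at 0.30 with slide row as covariate, and at 0.28 and 0.27 with spot medians and with spots outside the dim area, the last 2 chosen after seeing the data. Replicate numbers did not pair the samples: deviations of same-numbered arrays correlated from -0.35 to 0.38, and 4 of 16 arrays correlated best with their own number. The replicate block changed no other call.

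Without normalization, values were 0.35, 0.24 and 0.29 for knockout minus wild type without UV (mmu-miR-199a-5p, mmu-miR-199b, mmu-miR-214), 0.083 for the UV difference of mmu-miR-199a-5p in wild type, -0.77, -0.46 and -0.25 for UV in knockout, and 0.86, 0.81 and 0.63 for the interactions, against a median of all miRNAs of 0.52, 0.21, -0.48 and 0.77 in those comparisons. With quantiles within each slide, UV differences were -0.42 and -0.43 for mmu-miR-199a-5p in wild type and knockout (both called), -0.0255 and -0.0828 for mmu-miR-199b, and -0.074 for mmu-miR-214 in wild type, beside medians of all miRNAs of -0.15 and -0.12, and the interaction of mmu-miR-199a-5p was 0.0009. Scaling to the 75th percentile of miRNAs detected on all arrays gave -0.0426 and -0.0076 for UV in wild type (mmu-miR-199b, mmu-miR-214) and interactions of 0.0008 and -0.0449 for mmu-miR-199a-5p and mmu-miR-199b, which were 0.0249 and -0.0207 with the 75th percentile of all miRNAs and 0.0241 and -0.0215 with the invariant set. Under the first of these scalings the median of all miRNAs was -0.10 for UV in wild type and -0.02 for the interaction. Normexp background gave -0.0026 for UV in wild type of mmu-miR-214 and -0.0664 for the within-array difference of knockout minus wild type without UV. For the added pairs within arrays, scaling by 1 factor per array or none gave -0.0458 (normexp -0.0206) for miR-199b minus miR-214 between genotypes without UV and -0.035 for its UV difference in wild type, and 0.1043 and 0.0456 for miR-199a-5p minus miR-199b between genotypes without UV and for its interaction. The exact permutation test passed mmu-miR-199a-5p for knockout minus wild type after UV at -0.22 (unadjusted exact p = 0.0286), and spot medians called mmu-miR-199b there at -0.39. With spot medians, miR-199b minus miR-214 was at -0.33 for knockout minus wild type after UV and at -0.26 for UV in knockout. Each had an exact permutation p of 0.0286, or 0.0476 after adjustment over 5 tests. For each, 9 of 10 alternatives did not pass that adjustment.

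Leaving out each array in turn, mmu-miR-199a-5p ranged from -0.44 to -0.19 and from -0.26 to -0.19 for knockout minus wild type without and after UV, from -0.43 to -0.25 (called without WT no UV replicate 3 or KO no UV replicate 4) and from -0.36 to -0.12 for UV in wild type and knockout, and from -0.22 to 0.0332 for the interaction. The same ranges of mmu-miR-199b were -0.26 to -0.12, -0.41 to -0.23 (called without KO UV replicate 1), 0.20 to 0.31 (called without WT no UV replicate 1), 0.04 to 0.21 and 0.02 to 0.19. Those of mmu-miR-214 were -0.40 to -0.29, -0.13 to 0.0091, -0.0107 to 0.12, 0.29 to 0.40 and -0.34 to -0.20. Those of the within-array difference were -0.0367 to 0.13, -0.24 to -0.12, -0.46 to -0.32, -0.67 to -0.51 and 0.11 to 0.29. For miR-199a-5p minus miR-199b, knockout minus wild type after UV was -0.0035 without KO UV replicate 4. The cause was not tested. The 5 comparisons (genotype without and after UV, UV in wild type and knockout, interaction) called 0, 5, 37, 68 and 5 miRNAs. With all arrays, normalization and an adjusted p, the alternatives called 0 to 10, 0 to 7, 26 to 59, 27 to 80 and 0 to 5. Leaving out 1 array gave 0 to 16, 5 to 7, 30 to 43, 35 to 70 and 1 to 12, with 16 and 12 both without WT no UV replicate 2 and 8 for the interaction without KO no UV replicate 4. No normalization gave 111, 5, 43, 130 and 138, with 36 higher and 7 lower for UV in wild type and 6 and 124 in knockout. Depth is limited by 4 arrays per group, and the higher background of the irradiated slide limits dim miRNAs more there.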
